A study of Caenorhabditis elegans with 12 samples.

Results

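The chaperone genes of Caenorhabditis elegans that carry the symbols hsp (heat shock proteins), dnj (DnaJ domain proteins) and cct (chaperonin containing TCP-1) were followed through immunoprecipitations (IPs) of 3 FLAG-tagged Y-box proteins. The symbols of the count table were searched for hsp, dnj or cct followed by a number, which gave 59 of the 20182 genes: 22 hsp, 29 dnj and 8 cct genes. Of these, 55 passed the filter on low counts and were tested together with all 15194 genes that passed. The other 4 are 2 identifiers each of hsp-16.1 and hsp-16.48, heat-inducible small heat shock genes with near-identical copies, and all 12 libraries had 0 counts for them. A count of 0 allows up to 3 counts per library, and how reads shared by near-identical copies were counted is not given in the sources used here.

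Y-box proteins bind mRNA through a cold-shock domain. Whole young adults of 3 strains were used. The CEY1 strain carries rrrSi300, a FLAG-tagged cey-1 reading frame under the cey-1 promoter, the CEY2 strain carries rrrSi233, a FLAG-tagged cey-2 reading frame under the cey-2 promoter, and the CEY4 strain carries rrrSi307, a FLAG-tagged cey-4 reading frame under the promoter of dpy-30. Each insertion lies on chromosome I, keeps the 3′ UTR of its own cey gene and is followed by an operon linker, PEST:GFPH2B, the tbb-2 3′ UTR and unc-119(+), so the MYC control IPs came from animals that carry the same transgene as the FLAG IPs. The promoter helps to set which cells of the worm hold the tagged protein, and is not the only part of a transgene that can. Each strain gave 2 FLAG and 2 MYC libraries, and the labels do not say whether the 2 came from separate cultures, so p-values measure the spread between these libraries, which may be technical.

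HSP70 proteins hold unfolded stretches of other proteins through cycles of ATP hydrolysis, and DnaJ proteins (J proteins) bring them clients and start the hydrolysis. HSP90 finishes the folding of signalling proteins, the CCT chaperonin encloses actin and tubulin in a double ring of 8 different subunits, and small heat shock proteins bind unfolding proteins without ATP. Each compartment of the cell has its own set: BiP and its J proteins in the endoplasmic reticulum (ER), a separate HSP70 and the chaperonin HSP60 in the mitochondrion.

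FLAG libraries held between 22915137 and 33529549 counts and MYC libraries between 3353523 and 12802412. Levels are given as CPM, the share of a library's counts on a scale common to all libraries, after normalisation with TMM, which sets library sizes from a trimmed mean of log ratios between libraries, and the log2 fold change of FLAG over MYC is called the enrichment. Scaling to total counts instead lowered the enrichment of every chaperone gene by nearly the same amount, 1.49 with CEY1, 1.73 with CEY2 and 1.41 with CEY4 in the median, because TMM factors lay between 0.548 and 0.640 for FLAG and between 1.51 and 2.13 for MYC libraries. No spike-in fixes which scaling is nearer to the amounts of RNA recovered. The place of a gene among all genes, the distance from the median of all genes and the ratio of 2 mRNAs within a library hardly depend on this choice, and they are given for the gene groups and for the genes described most fully. Marker genes of germline, body wall muscle, intestine, hypodermis, neurons and sperm were all detected, apart from 1 of 4 sperm markers with no count in the CEY4 FLAG libraries.

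Under TMM scaling the dnj mRNAs, which are 29 of the 55 genes tested, made up most of the enriched chaperone genes in every strain. The larger heat shock genes were mostly enriched, no small heat shock gene was called higher, and the CCT subunits were split. Under total-count scaling most chaperone genes were called lower in each strain. With CEY1, 31 of 55 chaperone genes (56.4%) were called higher in the FLAG than in the MYC IP and 12 lower, against 32.3% and 34.4% of all genes tested (edgeR quasi-likelihood test, Benjamini-Hochberg adjusted p under 0.05). CEY2 gave 37 higher (67.3%) and 10 lower, against 34.9% and 34.1% of all genes. For CEY4 the counts were 32 higher (58.2%) and 16 lower, against 31.5% and 37% of all genes. Under total-count scaling these splits became 7 higher and 44 lower with CEY1, 10 and 35 with CEY2, and 6 and 43 with CEY4. In percent this is 12.7 higher and 80.0 lower with CEY1, 18.2 and 63.6 with CEY2, and 10.9 and 78.2 with CEY4, while all genes tested gave 10.8 and 71.4, 13.2 and 71.7, and 9.25 and 79.7, so with CEY4 the split was close to that of all genes. The median chaperone gene lay above the median of all genes by 0.89 with CEY1, 1.61 with CEY2 and 0.87 with CEY4 under TMM, and by 0.88, 1.59 and 0.86 under total-count scaling.

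**Figure D1:**
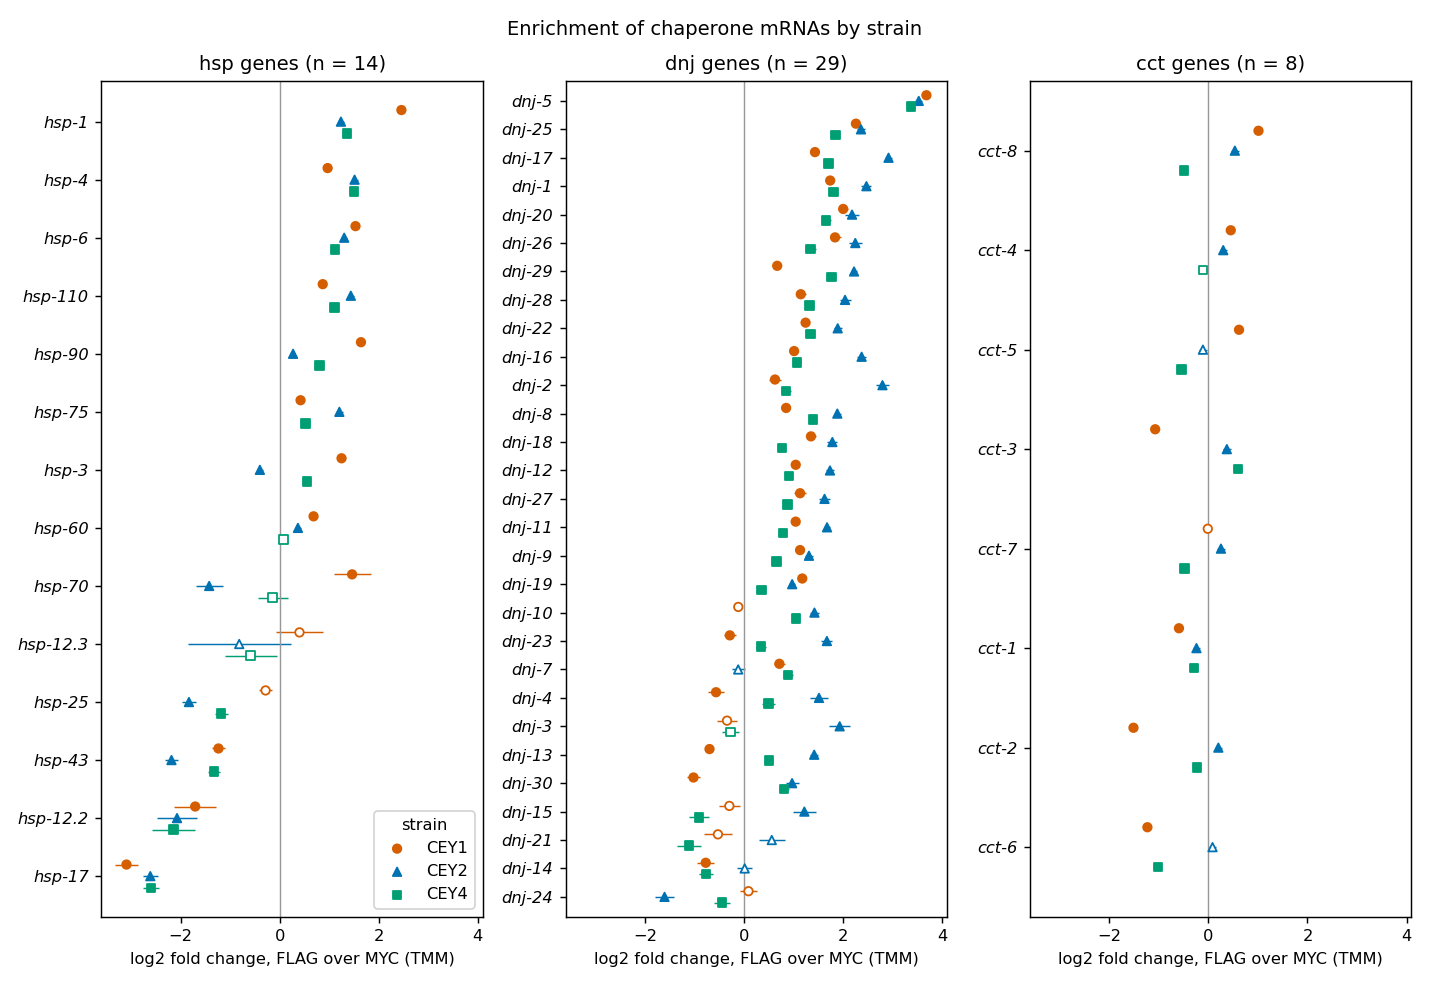
Log2 fold change of FLAG over MYC (horizontal axis, TMM scaling) of 14 hsp, 29 dnj and 8 cct genes in the CEY1, CEY2 and CEY4 strains, with the standard error as a bar; filled symbols passed the adjusted threshold and open symbols did not. Values of dnj genes lie mostly right of 0, from 3.68 for dnj-5 with CEY1 to −1.60 for dnj-24 with CEY2, small heat shock genes lie left of 0 apart from hsp-12.3 with CEY1 (0.40, not called), and the cct genes lie on both sides.

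Of the 3 families, the J proteins had the largest share called higher in each strain, with the small heat shock genes counted among the hsp genes. With CEY1 the larger hsp genes, counted below without the small ones, were all called higher. Of 29 dnj genes, 19 were called higher and 5 lower with CEY1, 25 and 1 with CEY2, and 24 and 4 with CEY4, against the shares of all genes given above. Under total-count scaling these counts were 5 and 22, 10 and 9, and 6 and 19. The median enrichment stood at 1.01 for CEY1, 1.73 for CEY2 and 0.87 for CEY4, where all genes had −0.26, −0.41 and −0.35, and it turned to −0.48, 0.00 and −0.54 under total-count scaling, where all genes had −1.75, −2.12 and −1.75. In both scalings the median dnj gene lay above that of all genes, by 1.27 with CEY1, 2.14 with CEY2 and 1.22 with CEY4 under TMM. The number above the median of all genes was 21 of 29 with CEY1, 28 with CEY2 and 25 with CEY4. Under TMM, 18 of the 29 were called higher in all 3 strains. The share of all genes called higher in all 3 was not counted, so this number has no background to be set against.

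The mRNA of dnj-5 (WBGene00001023) was the most enriched chaperone mRNA in each strain. It stood at 2639 and 2535 CPM in the CEY1 FLAG libraries, against 218 and 187 CPM in the CEY1 MYC libraries. CEY2 FLAG libraries had 1538 and 1573 CPM and CEY2 MYC libraries 141 and 128 CPM, and CEY4 FLAG libraries had 1949 and 1988 CPM and CEY4 MYC libraries 198 and 183 CPM. Every FLAG library was therefore far above every MYC library, and the CEY1 FLAG libraries were the highest of all. The enrichment was 3.68 ± 0.06 (SE) for CEY1, 3.53 ± 0.07 for CEY2 and 3.37 ± 0.06 for CEY4, with adjusted p of 8.03e-37, 4.79e-36 and 8.50e-36 by edgeR. Among the 15194 genes it ranked 101 with CEY1, 98 with CEY2 and 25 with CEY4, and it was called higher under total-count scaling as well in each strain.

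Auxilin, encoded by dnj-25, recruits HSC70 to uncoat clathrin vesicles, and its mRNA was enriched in each strain. FLAG and MYC libraries did not overlap: CEY1 had 318 and 335 CPM against 68.3 and 68.2 CPM, CEY2 had 225 and 223 CPM against 45.3 and 41.7 CPM, and CEY4 had 246 and 250.4 CPM against 68.1 and 70.3 CPM. Its enrichment was 2.26 ± 0.07, 2.36 ± 0.07 and 1.84 ± 0.06 with CEY1, CEY2 and CEY4. Like dnj-5, the genes dnj-1, dnj-20 and dnj-25 were called higher in all 3 strains also under total-count scaling. Also among the 3 largest chaperone enrichments of a strain were dnj-17 (2.92 ± 0.08) and dnj-2 (2.79 ± 0.13) with CEY2 and dnj-1 (1.81 ± 0.08) with CEY4. By contrast dnj-14, which encodes the cysteine string protein of synaptic vesicles, had −0.77 ± 0.17 with CEY1, 0.01 ± 0.16 with CEY2 (adjusted p = 0.944 by edgeR) and −0.77 ± 0.14 with CEY4, and both negative values were called. The zuotin-related dnj-11 had 1.04 ± 0.05, 1.68 ± 0.06 and 0.79 ± 0.05, which were −0.45, −0.05 and −0.62 under total-count scaling.

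The cytosolic J proteins, which serve HSC70, did not move as one. With CEY1, dnj-12 (1.04 ± 0.07) and dnj-19 (1.18 ± 0.05) were called higher while dnj-13 was called lower (−0.70 ± 0.08). All 3 were called higher with CEY2, where dnj-12 had 1.73 ± 0.07, dnj-13 1.42 ± 0.08 and dnj-19 0.97 ± 0.06. All 3 were also called higher with CEY4, at 0.90 ± 0.07, 0.51 ± 0.07 and 0.35 ± 0.05. For dnj-13 the CEY1 FLAG libraries held 89.3 and 95.3 CPM against 167 and 134 CPM in the MYC libraries, while the CEY2 FLAG libraries held 268 and 262 CPM against 107 and 91.6 CPM. CEY4 FLAG libraries had 229 and 238 CPM, against 162 and 166 CPM in CEY4 MYC libraries. The groups did not overlap in any strain, and CEY1 was the strain in which FLAG lay below MYC. Under total-count scaling the positive values of these 3 genes turned negative, other than that of dnj-12 with CEY2, which was 0.00.

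The 12 dnj genes with no compartment or role assigned here and no place among the largest enrichments ranged from −1.02 to 1.84 with CEY1, where 6 were called higher and 3 lower. With CEY2 they ranged from −1.60 to 2.37 with 11 higher and 1 lower, and with CEY4 from −0.91 to 1.39 with 9 higher and 2 lower.

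The constitutive cytosolic heat shock genes had their largest enrichment with CEY1, apart from hsp-110. The mRNA of hsp-1 (WBGene00002005), the constitutive HSC70, stood at 8648 and 8494 CPM in CEY1 FLAG libraries, against 1776 and 1352 CPM in CEY1 MYC libraries. CEY2 FLAG libraries had 3535 and 3457 CPM, against 1572 and 1396 CPM in MYC. In CEY4 the FLAG libraries had 4476 and 4527 CPM, against 1825 and 1696 CPM in MYC. The 6 MYC libraries lay in one range while the FLAG libraries of CEY1 stood well above those of the other strains. The enrichment was 2.46 ± 0.07 for CEY1, 1.24 ± 0.07 for CEY2 and 1.35 ± 0.07 for CEY4, all called by edgeR, and the CEY2 and CEY4 values turned to −0.49 and −0.06 under total-count scaling. Among all genes it ranked 770 for CEY1, 3931 for CEY2 and 1996 for CEY4.

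The cytosolic HSP90 gene hsp-90 (WBGene00000915) was highest over its control with CEY1 and lowest with CEY2. Its FLAG libraries held 6489.6 and 6212 CPM against 2049.6 and 2026 CPM in MYC for CEY1, and 2094 and 2171 CPM against 1777 and 1762 CPM for CEY2. CEY4 had 3949 and 3987 CPM in FLAG, against 2337 and 2201 CPM in MYC. FLAG lay above MYC without overlap in each strain, by a small margin with CEY2. Enrichments were 1.64 ± 0.05 with CEY1, 0.27 ± 0.05 with CEY2 and 0.81 ± 0.05 with CEY4, each called, but the CEY2 value was −0.07 with median-ratio size factors (adjusted p = 0.167 by edgeR) and −1.46 under total-count scaling, and the CEY4 value was −0.61 under the last. Its ranks were 2053 with CEY1, 5911 with CEY2 and 3458 with CEY4. The nucleotide exchange factor gene hsp-110 took another order, with 0.87 ± 0.05, 1.44 ± 0.06 and 1.11 ± 0.05, which were −0.62, −0.29 and −0.31 under total-count scaling. Within a library, counts of hsp-1 per count of hsp-110 were 15.3 and 15.4 in CEY1 FLAG, against 5.67 and 4.53 in CEY1 MYC. They were 6.29 and 5.83 in CEY2 FLAG against 7.45 and 6.46 in CEY2 MYC, and 6.49 and 6.54 in CEY4 FLAG against 5.67 and 5.32 in CEY4 MYC. The ratio thus stood apart in CEY1 FLAG.

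The heat-inducible hsp-70 was rare, with 5 to 57 counts per library. CEY1 FLAG libraries held 48 and 36 counts against 5 and 14 in MYC, CEY2 FLAG libraries 41 and 57 against 49 and 48, and CEY4 FLAG libraries 29 and 31 against 45 and 28. After scaling, the enrichment was 1.46 ± 0.38 with CEY1 and −1.42 ± 0.27 with CEY2, both called by edgeR (adjusted p = 0.000758 and 1.19e-05), and −0.14 ± 0.30 with CEY4. Under total-count scaling the CEY1 value was −0.03.

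**Figure D2:**
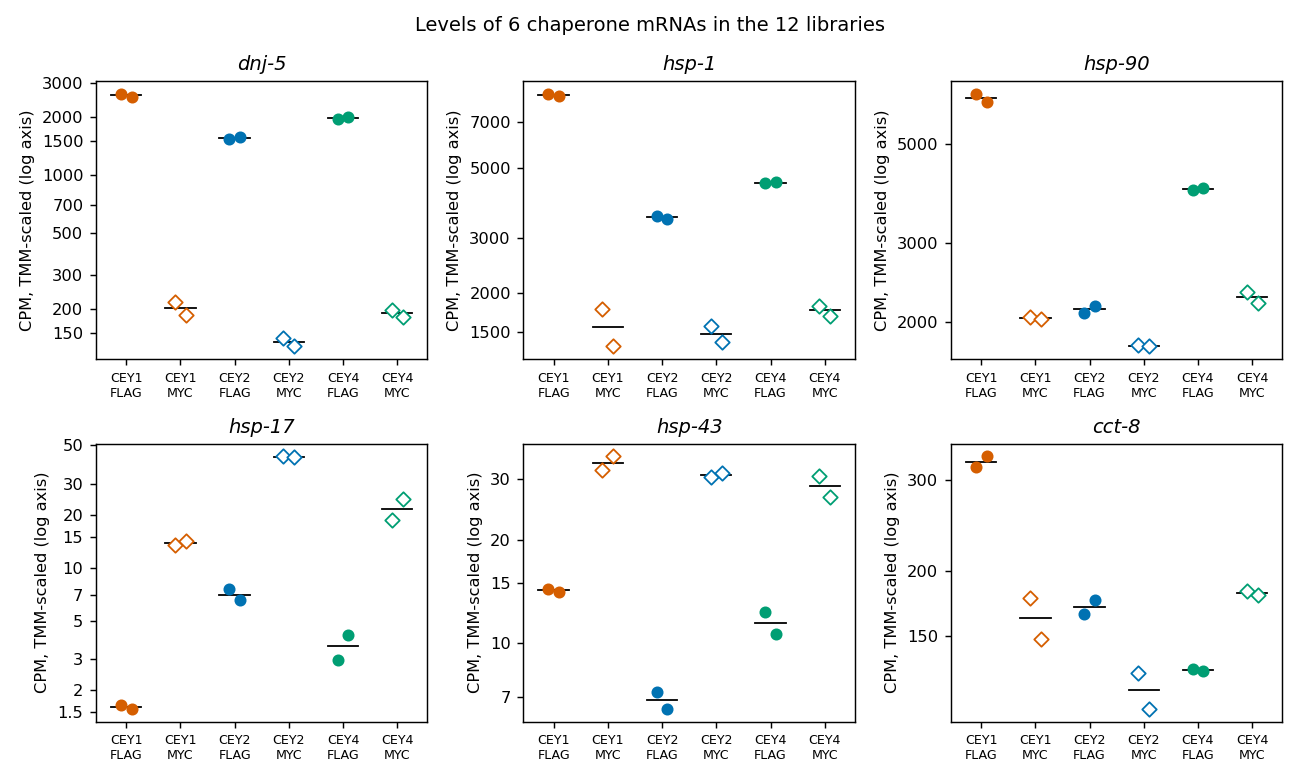
Levels of dnj-5, hsp-1, hsp-90, hsp-17, hsp-43 and cct-8 in each of the 12 libraries (vertical axis, TMM-scaled CPM on a log axis), with filled circles for FLAG, open diamonds for MYC and a line at the mean of the 2 libraries of a group. FLAG stands above MYC in every strain for dnj-5 (1538 to 2639 CPM against 128 to 218), below it for hsp-17 and hsp-43, and cct-8 is above MYC with CEY1 and CEY2 and below it with CEY4.

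BiP, the HSP70 of the ER lumen, is encoded by hsp-3 and hsp-4, and the unfolded protein response induces hsp-4 strongly. These paralogs parted between the strains. The hsp-3 mRNA had 1065 and 1076 CPM in CEY1 FLAG libraries against 437 and 463 CPM in CEY1 MYC, 259.8 and 262 CPM in CEY2 FLAG against 342 and 346 CPM in CEY2 MYC, and 677 and 679 CPM in CEY4 FLAG against 461 and 466 CPM in CEY4 MYC. For hsp-4 the FLAG libraries of CEY1, CEY2 and CEY4 had 333 and 343, 414 and 432, and 559 and 564 CPM, against MYC libraries with 181 and 166, 149 and 148, and 202 and 196 CPM. Groups did not overlap, and hsp-3 with CEY2 was the case in which FLAG lay below MYC. The enrichment of hsp-3 was 1.25 ± 0.05 for CEY1, −0.40 ± 0.05 for CEY2 and 0.55 ± 0.05 for CEY4, and that of hsp-4 was 0.97 ± 0.06, 1.51 ± 0.06 and 1.5 ± 0.06, all called by edgeR. Under total-count scaling hsp-3 was negative in each strain (−0.24 with CEY1 and −0.87 with CEY4), and hsp-4 was −0.52 with CEY1 and −0.22 with CEY2.

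The ratio of hsp-3 to hsp-4 counts inside a library needs no scaling between libraries. It was 3.20 and 3.14 in CEY1 FLAG against 2.42 and 2.79 in CEY1 MYC, 0.627 and 0.606 in CEY2 FLAG against 2.30 and 2.34 in CEY2 MYC, and 1.21 and 1.20 in CEY4 FLAG against 2.28 and 2.38 in CEY4 MYC. The 6 control libraries agreed within 2.28 to 2.79, while the FLAG libraries of the 3 strains lay apart from them and from each other. As a ratio of counts of 2 genes it also holds their lengths, so its absolute value says nothing of which mRNA was more abundant.

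**Figure D3:**
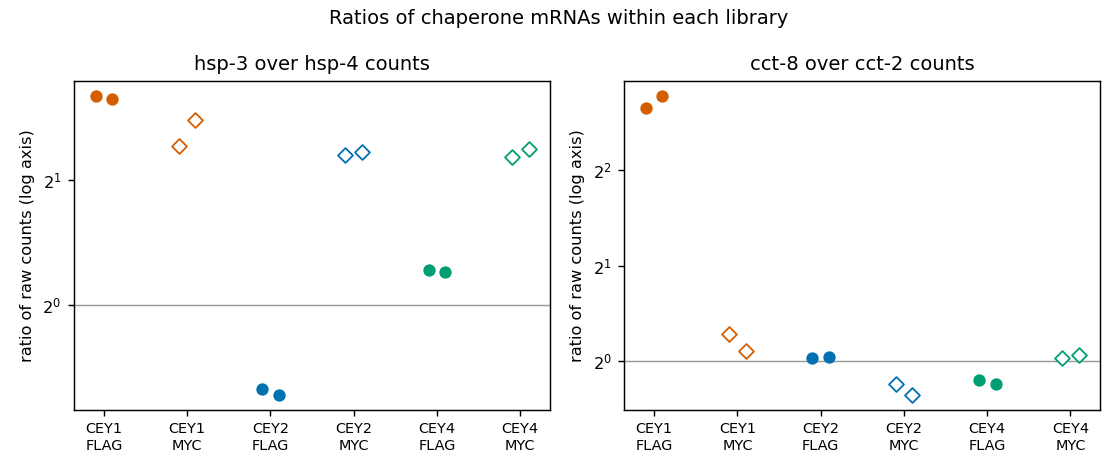
Ratio of hsp-3 to hsp-4 counts (left) and of cct-8 to cct-2 counts (right) in each library, on a log axis, with filled circles for FLAG and open diamonds for MYC. The control ratios stay between 2.28 and 2.79 on the left and between 0.782 and 1.21 on the right, and CEY1 FLAG on the right stands at 6.28 and 6.86. The pair on the right was picked as the highest and lowest CCT subunits with CEY1.

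Among the J proteins of the ER, the ERdj3 gene dnj-20 had 2.00 ± 0.11 with CEY1, 2.18 ± 0.14 with CEY2 and 1.66 ± 0.10 with CEY4. The SEC63 gene dnj-29, which works at the translocon, had 0.67 ± 0.06, 2.22 ± 0.07 and 1.76 ± 0.06, and the ERdj5 gene dnj-27, a disulfide reductase, had 1.13 ± 0.12, 1.62 ± 0.11 and 0.87 ± 0.09. Of the genes related to P58IPK, dnj-28 had 1.15 ± 0.10, 2.04 ± 0.11 and 1.32 ± 0.09, while dnj-7 had 0.71 ± 0.11, −0.12 ± 0.13 (adjusted p = 0.434 by edgeR) and 0.89 ± 0.10. All but that CEY2 value of dnj-7, which was 0.12 without CEY2 MYC replicate 2, were called higher. Under total-count scaling dnj-20 alone of these kept a called positive value in each strain.

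In the mitochondrion, the HSP70 gene hsp-6, a reporter of the mitochondrial unfolded protein response, was enriched in each strain. FLAG libraries held 980.5 and 1017 CPM against 374 and 319.9 CPM in MYC for CEY1, 499.6 and 474 CPM against 206 and 189 CPM for CEY2, and 780.4 and 774 CPM against 357 and 361 CPM for CEY4, with no overlap. Its enrichment was 1.53 ± 0.06 for CEY1, 1.30 ± 0.06 for CEY2 and 1.11 ± 0.06 for CEY4, and the CEY2 and CEY4 values were −0.43 and −0.30 under total-count scaling, at ranks 2284, 3763 and 2596 in the 3 strains. The chaperonin gene hsp-60 had 0.68 ± 0.06, 0.37 ± 0.06 and 0.07 ± 0.06 (adjusted p = 0.263 by edgeR with CEY4), and the mitochondrial HSP90 gene hsp-75 had 0.42 ± 0.07, 1.20 ± 0.08 and 0.52 ± 0.07. For dnj-10, related to Tid1, the values were −0.12 ± 0.08 (edgeR adjusted p = 0.213), 1.42 ± 0.09 and 1.05 ± 0.07. The import motor gene dnj-21 was −0.53 ± 0.28 for CEY1, 0.56 ± 0.26 for CEY2 and −1.11 ± 0.24 for CEY4, of which edgeR called the last. The CEY1 value of dnj-21 was called without CEY1 MYC replicate 1 (−0.78), and the CEY2 value was called without CEY2 MYC replicate 2 (1.28), CEY1 MYC replicate 1 (0.59) or replicate 2 (0.59), or CEY4 MYC replicate 1 (0.58) or replicate 2 (0.58).

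Small heat shock mRNAs were lower in the FLAG IPs or were not called. Of the 9 tested, 0 were called higher and 3 lower with CEY1, 0 and 6 with CEY2, and 0 and 6 with CEY4. All genes tested gave 32.3% higher and 34.4% lower with CEY1, 34.9% and 34.1% with CEY2, and 31.5% and 37% with CEY4. The number called lower with CEY1 was thus near the share of all genes. The 5 small heat shock genes above 31 counts had median enrichments of −1.24 with CEY1, −2.07 with CEY2 and −1.32 with CEY4, below the median of all genes by 0.98, 1.66 and 0.97, and total-count scaling gave −2.73, −3.80 and −2.74. The hsp-17 mRNA (WBGene00002021) fell to 1.66 and 1.57 CPM in CEY1 FLAG libraries, against 13.4 and 14.2 CPM in MYC. CEY2 FLAG libraries had 7.53 and 6.53 CPM, against 43.1 and 42.7 CPM in MYC, and CEY4 FLAG libraries had 2.99 and 4.13 CPM, against 18.6 and 24.6 CPM in MYC. Every FLAG library was below every MYC library, and CEY2 was the highest of the strains with both antibodies. Its enrichments of −3.09 ± 0.23, −2.61 ± 0.15 and −2.60 ± 0.17 placed it at ranks 14229, 14168 and 13857 of 15194.

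For hsp-43 the FLAG libraries had 14.4 and 14.1 CPM against 32 and 35 CPM in MYC for CEY1, 7.21 and 6.43 CPM against 30.5 and 31.4 CPM for CEY2, and 12.4 and 10.6 CPM against 30.8 and 26.6 CPM for CEY4. The MYC libraries of the 3 strains shared one range and every FLAG library lay below it. Its enrichment was −1.24 ± 0.13, −2.18 ± 0.14 and −1.32 ± 0.12. The muscle-associated hsp-25 had −0.29 ± 0.13 with CEY1 (adjusted p = 0.0538 by edgeR), −1.83 ± 0.14 with CEY2 and −1.18 ± 0.13 with CEY4, and the CEY1 value was called without CEY1 MYC replicate 2 (−0.53). For hsp-12.2, with 6 to 38 counts per library, the enrichments were −1.71 ± 0.42, −2.07 ± 0.40 and −2.15 ± 0.43, all called, the CEY1 value not without CEY1 MYC replicate 2 (−1.25, edgeR adjusted p = 0.0581). For hsp-12.3, with 1 to 38 counts, they were 0.40 ± 0.47, −0.82 ± 1.04 and −0.59 ± 0.52, none called. The CEY4 value of hsp-12.3 was called without CEY4 MYC replicate 1 (−1.20) and was 0.48 without replicate 2.

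The remaining 4 small heat shock genes never passed 31 counts, so counts summed over the 2 libraries of a group are given. The heat-inducible hsp-16.2 had 1 FLAG count against 4 MYC counts with CEY1, 1 against 16 with CEY2, and 14 against 50 with CEY4. Its neighbour on the chromosome, hsp-16.41, had 3 against 10, 1 against 16 and 10 against 38. After scaling, 1 count against 16 is a ratio of 0.0231 (95% interval 0.000551 to 0.149, counting error only), and 14 against 50 is a ratio of 0.307 (0.157 to 0.565). Both genes were called lower with CEY2 and CEY4 and not with CEY1. For hsp-12.1 the sums were 1 against 7, 16 against 16 and 3 against 14, and for hsp-12.6 they were 0 against 4, 1 against 3 and 2 against 15, with no call.

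The whole hsp family gave 9 called higher and 3 lower of 18 with CEY1, 7 and 8 with CEY2, and 7 and 6 with CEY4, a mixture of the classes above. Without the small heat shock genes, the 9 larger ones gave 9 higher and 0 lower with CEY1, 7 and 2 with CEY2, and 7 and 0 with CEY4, but 2 and 5, 0 and 9, and 0 and 7 under total-count scaling, with medians above that of all genes by 1.51, 1.61 and 1.16. The 2 lower ones with CEY2 were hsp-3 and hsp-70. Medians of the 9 themselves were 1.25, 1.20 and 0.81 and turned to −0.24, −0.53 and −0.61 under total-count scaling. Median enrichment of all 18 was 0.41 for CEY1, −1.11 for CEY2 and −0.36 for CEY4 (−1.08, −2.81 and −1.77 under total-count scaling), and without hsp-70 and the hsp-16 genes it was 0.42, −0.40 and 0.07. These medians hold the fitted values of the 4 genes that never passed 31 counts, and without those 4 the median of the other 14 was 0.78, −0.07 and 0.30, so the sign with CEY4 rests on the rarest genes.

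The 8 CCT proteins stand side by side in one complex, and their mRNAs did not come down in step. Median enrichment was −0.30 for CEY1, 0.23 for CEY2 and −0.38 for CEY4, and the SD over the 8 subunits was 0.94 for CEY1, 0.25 for CEY2 and 0.46 for CEY4, against standard errors between 0.06 and 0.09 for single subunits. Over all genes tested the SD was 1.81 for CEY1, 1.78 for CEY2 and 1.64 for CEY4. The subunits thus differed by more than their standard errors but varied less than genes in general. Set against the median of all genes, the CCT median lay at −0.04 with CEY1, 0.64 with CEY2 and −0.03 with CEY4, with 4, 8 and 4 of the 8 subunits above it. With CEY1, edgeR called 3 subunits higher and 4 lower, with CEY2 5 and 1, and with CEY4 1 and 6. All genes tested gave 32.3% higher and 34.4% lower with CEY1, 34.9% and 34.1% with CEY2, and 31.5% and 37% with CEY4. Under total-count scaling every cct gene was called lower in each strain, with medians of −1.79, −1.50 and −1.80, so the split between subunits and not its sign is what both scalings share. Ranks among all genes were 3541, 5353 and 8121 for cct-8 and 11405, 6046 and 7128 for cct-2 with CEY1, CEY2 and CEY4.

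With CEY1 the enrichment was highest for cct-8 (1.01 ± 0.07), cct-5 (0.62 ± 0.07) and cct-4 (0.45 ± 0.07), and lowest for cct-2 (−1.51 ± 0.07), cct-6 (−1.23 ± 0.06) and cct-3 (−1.07 ± 0.09). Between these lay cct-7 (−0.01 ± 0.07) and cct-1 (−0.59 ± 0.07). With CEY2 the subunits stayed close together: cct-8 0.53 ± 0.07, cct-3 0.37 ± 0.08, cct-4 0.30 ± 0.07, cct-7 0.25 ± 0.07, cct-2 0.20 ± 0.07, cct-6 0.08 ± 0.06, cct-5 −0.11 ± 0.07 and cct-1 −0.24 ± 0.07. With median-ratio size factors the CEY2 values of cct-2, cct-4, cct-6 and cct-7 turned to −0.14, −0.04, −0.26 and −0.09. The call of cct-1 was lost without CEY2 FLAG replicate 1 (−0.18) or CEY2 MYC replicate 1 (−0.18), and that of cct-2 without CEY2 FLAG replicate 2 (0.18) or CEY2 MYC replicate 2 (0.16). With CEY4, cct-3 (0.60 ± 0.07) was called higher, cct-4 (−0.10 ± 0.06) was not called, and the lowest was cct-6 (−1.02 ± 0.06). The other CEY4 values were −0.23 ± 0.06 for cct-2, −0.29 ± 0.06 for cct-1, −0.48 ± 0.06 for cct-7, −0.49 ± 0.07 for cct-8 and −0.54 ± 0.07 for cct-5, all called.

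The levels behind the CEY1 extremes were 318 and 334 CPM of cct-8 in CEY1 FLAG libraries against 177 and 148 CPM in MYC, and 50.7 and 48.7 CPM of cct-2 against 146 and 138 CPM. With CEY2, cct-8 had 166 and 176 CPM in FLAG against 127 and 108 CPM in MYC, and cct-2 had 162 and 171 CPM against 151 and 138 CPM. CEY4 FLAG libraries had 129 and 128 CPM of cct-8 against 183 and 179.7 CPM, and 149 and 152 CPM of cct-2 against 179 and 172 CPM. The FLAG and MYC libraries did not overlap for either gene. The 2 genes were picked as the highest and lowest subunits with CEY1, so their wide distance in that strain follows from the choice. Counts of cct-8 per count of cct-2 were 6.28 and 6.86 in CEY1 FLAG, against 1.21 and 1.07 in CEY1 MYC. They were 1.02 and 1.03 in CEY2 FLAG against 0.845 and 0.782 in CEY2 MYC, and 0.870 and 0.845 in CEY4 FLAG against 1.02 and 1.04 in CEY4 MYC.

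Shares of the summed counts of the 8 cct genes express the same counts without any scaling between libraries, and are not separate evidence of the split. In CEY1 FLAG libraries cct-8 took 24.9% and 26.3% of the CCT counts, against 12% and 11% in CEY1 MYC, and cct-2 took 3.96% and 3.83% against 10.1% and 10.5%. The share of cct-3 was 4.98% and 5.49% in CEY1 FLAG against 10.6% and 9.72% in CEY1 MYC, but 17.01% and 17.15% in CEY4 FLAG against 8.93% and 9.14% in CEY4 MYC. For cct-6 the shares were 7.66% and 8.29% in CEY1 FLAG against 17% and 17.5% in MYC, and 11.6% and 11.9% in CEY4 FLAG against 18.4% and 19.6% in MYC. In CEY2 the shares of cct-2 in FLAG and MYC lay close together, at 14.1% and 14.4% in FLAG against 13.6% and 13.8% in MYC.

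**Figure D4:**
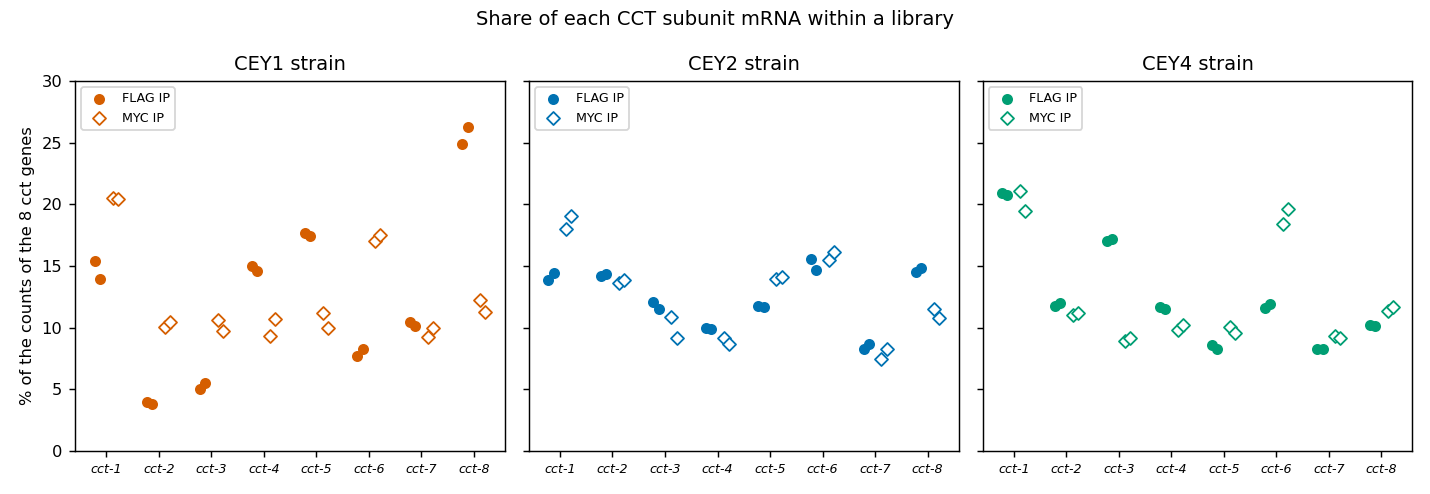
Share of each CCT subunit in the summed counts of the 8 cct genes (vertical axis, percent) in every library of the CEY1, CEY2 and CEY4 strains, with filled circles for FLAG and open diamonds for MYC. In CEY1 FLAG cct-8 reaches 24.9% and 26.3% and cct-2 drops to 3.96% and 3.83%, while in CEY2 the FLAG and MYC shares of most subunits lie close together.

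By compartment, the ER chaperones listed here had the highest median in each strain, with the cct genes counted in cytosol and nucleus. Of the 7 ER genes, 7 were called higher and 0 lower with CEY1, 5 and 1 with CEY2, and 7 and 0 with CEY4, and 1 and 6, 3 and 3, and 2 and 3 under total-count scaling. The 5 mitochondrial genes gave 3 and 0, 4 and 0, and 3 and 1, and the 15 genes of cytosol and nucleus, 8 of them cct genes, gave 9 and 5, 11 and 2, and 7 and 6. Under total-count scaling these were 0 and 4, 0 and 5, and 0 and 5 for the mitochondrion, and 2 and 12, 0 and 14, and 0 and 14 for cytosol and nucleus. The shares of all genes called higher and lower were 32.3% and 34.4% with CEY1, 34.9% and 34.1% with CEY2, and 31.5% and 37% with CEY4. Medians were 1.13 with CEY1, 1.62 with CEY2 and 1.32 with CEY4 for the ER, 0.42, 1.20 and 0.52 for the mitochondrion, and 0.62, 0.30 and −0.10 for cytosol and nucleus. Under total-count scaling they became −0.36, −0.11 and −0.10 for the ER, −1.07, −0.53 and −0.89 for the mitochondrion, and −0.87, −1.43 and −1.52 for cytosol and nucleus. Relative to all genes, the ER median lay 1.39, 2.03 and 1.67 above, the mitochondrial median 0.68, 1.61 and 0.87, and the cytosolic median 0.88, 0.71 and 0.24. Of the cytosolic genes other than cct, hsp-1 (2.46), hsp-90 (1.64), hsp-70 (1.46) and dnj-19 (1.18) lay above the ER median with CEY1 under TMM. The others, dnj-12 (1.04), hsp-110 (0.87) and dnj-13 (−0.70), lay below it. With CEY1 the order of ER over cytosol and nucleus therefore rests on counting the cct genes. These compartments were assigned to 27 genes from general knowledge of the families, and the differences between them were not tested.

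**Figure D5:**
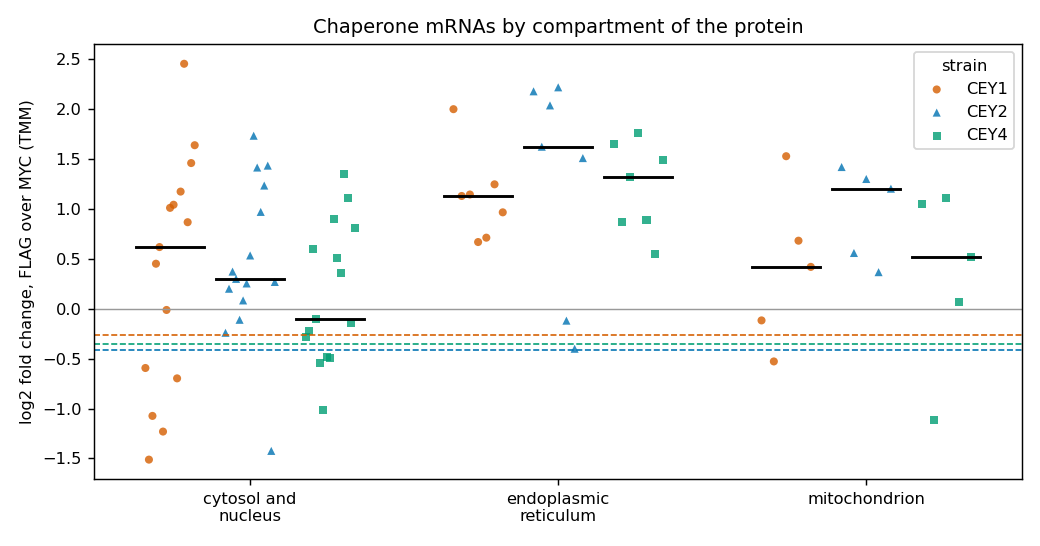
Log2 fold change of FLAG over MYC (vertical axis, TMM scaling) of chaperone genes of cytosol and nucleus (15), ER (7) and mitochondrion (5), with a point for each gene, a black line at the median and dashed lines at the median of all genes in each strain. ER medians lie at 1.13, 1.62 and 1.32, against 0.62, 0.30 and −0.10 for cytosol and nucleus, which include the 8 cct genes.

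The difference of enrichment between strains was tested as an interaction contrast in edgeR. For CEY1 minus CEY2, 13 of 55 chaperone genes were called higher and 29 lower, against 18.4% and 31.4% of all genes tested. The families parted: dnj genes gave 3 higher and 21 lower with a median of −0.79, hsp genes gave 8 higher and 3 lower with a median of 0.66, and cct genes gave 2 higher and 5 lower, beside a median of −0.23 for all genes. Total-count scaling gave medians of −0.55 for dnj, 0.89 for hsp and −0.07 for cct genes, with all genes at 0.01. An enrichment difference joins a difference between FLAG and one between MYC libraries. Between the FLAG libraries of CEY1 and CEY2, 25 chaperone genes were called higher and 22 lower, against 29.9% and 31.2% of all genes. Of these, hsp genes gave 8 higher and 3 lower in FLAG and 8 and 4 in MYC, while dnj genes gave 12 and 16 in FLAG and 24 and 1 in MYC. The largest differences were those of hsp-70 (2.88 ± 0.46), dnj-24 (1.69 ± 0.26) and hsp-3 (1.65 ± 0.08) in favour of CEY1, and of dnj-3 (−2.27 ± 0.29), dnj-2 (−2.17 ± 0.18) and dnj-13 (−2.11 ± 0.11) in favour of CEY2. For hsp-70 the FLAG libraries differed by 0.27 (edgeR adjusted p = 0.414) and the MYC libraries by −2.62 (edgeR adjusted p = 4.1e-08), whereas for hsp-3 the FLAG libraries differed by 2.04 and the MYC libraries by 0.39. While most J protein genes were called lower in this contrast, the HSC70 gene hsp-1 (1.22 ± 0.09) and hsp-90 (1.37 ± 0.07) were called higher.

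For CEY1 minus CEY4, 18 were called higher and 14 lower, against 18.1% and 18.6% of all genes. Here dnj genes gave 7 higher and 8 lower, hsp genes 7 and 2, and cct genes 4 and 4. Between the FLAG libraries alone, 21 were called higher and 19 lower, against 23.6% and 25.4% of all genes. The CCT subunits supplied most of the largest differences: cct-8 (1.51 ± 0.10) and cct-5 (1.16 ± 0.10) were higher with CEY1, and cct-3 (−1.67 ± 0.11) and cct-2 (−1.29 ± 0.10) were lower. Their FLAG libraries differed by 1.34, 1.07, −1.70 and −1.59 and their MYC libraries by −0.17, −0.09, −0.03 and −0.31. The others were dnj-30 (−1.83 ± 0.17) and hsp-70 (1.61 ± 0.49, edgeR adjusted p = 0.00726), and the call of hsp-70 was lost without CEY1 MYC replicate 1 (1.28, adjusted p = 0.0515) or CEY4 MYC replicate 1 (1.28, adjusted p = 0.0543).

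For CEY2 minus CEY4, 34 were called higher and 8 lower, against 32.3% and 14.7% of all genes, while total-count and median-ratio scaling each gave 22 and 13. The dnj genes gave 25 higher and 2 lower with a median of 0.75 (0.44 under total-count scaling), beside 0.29 for all genes (−0.03). Between the FLAG libraries alone 17 chaperone genes were called higher and 28 lower in CEY2, against 27.6% and 27.3% of all genes. The dnj genes gave 12 and 13 there with a median of 0.04, while their MYC libraries gave 0 higher and 23 lower with a median of −0.69. Under total-count scaling the FLAG counts were 19 higher and 23 lower for chaperone genes, and the dnj medians were 0.21 in FLAG and −0.21 in MYC. Leaving out genes under 32 counts, the largest differences of enrichment were dnj-3 (2.20 ± 0.28), dnj-15 (2.13 ± 0.30) and dnj-2 (1.95 ± 0.17) toward CEY2, and hsp-70 (−1.28 ± 0.41), dnj-24 (−1.16 ± 0.25) and dnj-7 (−1.01 ± 0.17) toward CEY4. The small heat shock gene hsp-16.2, whose counts were given above, was also called lower (adjusted p = 0.0309 by edgeR). These 3 contrasts share the libraries of each strain between them and are not independent. The difference for dnj-5 was 0.15 ± 0.09 for CEY1 minus CEY2 (adjusted p = 0.150), 0.31 ± 0.08 for CEY1 minus CEY4 (adjusted p = 0.00238) and 0.16 ± 0.09 for CEY2 minus CEY4 (adjusted p = 0.138 by edgeR).

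The MYC controls also differed between strains. Between the MYC libraries of CEY1 and CEY2, 43 of 55 chaperone genes were called, 38 higher and 5 lower in CEY1, where 54.5% of all genes were called, and a fit of these 4 libraries alone called 25. Between CEY2 and CEY4, 42 were called, 3 higher and 39 lower in CEY2, against 57.8% of all genes. Total-count scaling changed these splits to 17 higher and 14 lower, and to 13 higher and 19 lower. Between CEY1 and CEY4, 12 were called, all lower in CEY1, against 14.5% of all genes, and this count was 6 in a fit of these 4 libraries alone and ran from 7 without CEY4 MYC replicate 1 to 18 without other libraries in turn. The summed level of 5 germline markers was 2588 to 2872 CPM in CEY1 MYC and 1626 to 1660.2 CPM in CEY2 MYC, with 2849 to 2859 CPM in CEY4 MYC, none of the 5 at 0. In the FLAG libraries it was 9129 to 9316 CPM with CEY1, 10586 to 10807 CPM with CEY2 and 7701 to 7708 CPM with CEY4. Summed muscle markers (4 genes, none at 0) were 12845 to 12903 CPM in CEY1 FLAG, 2778 to 2810.4 CPM in CEY2 FLAG and 11591 to 11879 CPM in CEY4 FLAG, against 3020.4 to 3718 CPM over the 6 MYC libraries. Intestine markers were 62977 to 66333 CPM in CEY1 FLAG, 23059.7 to 23794 CPM in CEY2 FLAG and 98765 to 101423 CPM in CEY4 FLAG, against 12100.4 to 14867 CPM over the MYC libraries. Hypodermis markers were 3617 to 4031 CPM, 269 to 281 CPM and 625 to 631 CPM in those FLAG libraries, against 662 to 961 CPM in MYC (4 markers each, none at 0). The hypodermis markers did not move together, so their sum follows some of them only. Between CEY1 and CEY2 FLAG libraries their median log2 difference lay at −0.30 relative to all genes, with 2 of 4 above. Between the MYC libraries of these strains it lay at −2.14, with 1 of 4 above. For CEY2 FLAG against MYC, 2 of 4 muscle and 2 of 4 intestine markers lay above the median of all genes. Their sums with CEY2 thus also follow some markers only. All these sums are TMM-scaled, so the distance of FLAG from MYC depends on the scaling here too. Fewer cells of a tissue and less of its RNA per cell cannot be told apart in whole animals. In the FLAG IPs, which cells hold the tagged protein and what it binds enter as well and cannot be separated from these. The part of tissue makeup in the chaperone values was not tested.

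Other genes of the folding pathways were counted by role. Of 12 genes of ER folding and the unfolded protein response, 6 were called higher and 6 lower with CEY1, 8 and 3 with CEY2, and 10 and 1 with CEY4, and 1 and 9, 1 and 10, and 1 and 9 under total-count scaling. The ER HSP90 gene enpl-1 had 2.60 ± 0.06, 1.36 ± 0.05 and 2.54 ± 0.05, and ire-1, the sensor kinase of the response, had 1.14 ± 0.06, 2.60 ± 0.07 and 1.40 ± 0.06. Calreticulin (crt-1) was called lower with CEY1 (−0.24 ± 0.05) and CEY2 (−0.39 ± 0.05) and higher with CEY4 (0.89 ± 0.05). The 10 cytosolic co-chaperones gave 4 higher and 5 lower with CEY1, 7 and 1 with CEY2, and 4 and 5 with CEY4, and 0 and 10, 0 and 7, and 0 and 10 under total-count scaling. The shares of all genes called, 32.3% higher and 34.4% lower with CEY1 and 31.5% and 37% with CEY4, are near the co-chaperone counts. With CEY2 the shares of all genes were 34.9% higher and 34.1% lower. Medians of the ER list were 0.19, 0.67 and 0.88 and those of the co-chaperones −0.37, 0.62 and −0.21, which total-count scaling turned to −1.30, −1.06 and −0.54, and −1.86, −1.10 and −1.63. Among the co-chaperones unc-45, which folds myosin, had −0.65 ± 0.08, 1.59 ± 0.07 and 0.77 ± 0.07.

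Of the 6 subunit genes of prefoldin, which hands nascent actin and tubulin to CCT, 0 were called higher and 5 lower with CEY1, and 0 and 6 with CEY4, where 34.4% and 37% of all genes were called lower, at medians of −1.82 and −1.41 (−3.31 and −2.83 under total-count scaling). The exception with CEY1 was pfd-5 (0.23 ± 0.12, edgeR adjusted p = 0.0712), and relative to all genes the medians were −1.56 and −1.06. With CEY2 it gave 1 higher and 1 lower, at a median of 0.01. The 8 actin and tubulin genes that are clients of CCT gave 8 higher and 0 lower with CEY1, 5 and 3 with CEY2, and 7 and 0 with CEY4, with medians of 2.24, 0.83 and 0.57 (0.75, −0.90 and −0.84 under total-count scaling; 2.50, 1.24 and 0.92 relative to all genes). Actin genes are near-identical in sequence and the tbb-2 3′ UTR is part of the transgenes, so reads of these clients may be shared or come from the transgene. Of 4 heat shock regulators, 2 were called higher and 0 lower with CEY1, 4 and 0 with CEY2, and 2 and 1 with CEY4. The heat shock factor gene hsf-1 had 2.62 ± 0.07 with CEY1, 3.05 ± 0.07 with CEY2 and 2.15 ± 0.06 with CEY4. Of 6 genes of mitochondrial protein quality, 3 were called higher and 1 lower with CEY1, 5 and 1 with CEY2, and 3 and 1 with CEY4, and atfs-1, the transcription factor of the mitochondrial response, had 3.32 ± 0.07, 1.52 ± 0.08 and 2.01 ± 0.06. Beside the counts of these lists, all genes gave 32.3% higher and 34.4% lower with CEY1, 34.9% and 34.1% with CEY2, and 31.5% and 37% with CEY4.

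As shares of all counts, hsp genes made up 1.04% and 1.03% of CEY1 FLAG libraries against 0.871% and 0.819% of CEY1 MYC, 0.501% and 0.505% of CEY2 FLAG against 0.994% and 0.952% of CEY2 MYC, and 0.674% in each CEY4 FLAG library against 0.925% and 0.901% of CEY4 MYC. The dnj genes made up 0.345% to 0.356% of the FLAG libraries against 0.284% to 0.348% of the MYC libraries. Without dnj-5, which alone was 0.144% and 0.141% of CEY1 FLAG against 0.0332% and 0.0295% of CEY1 MYC, the dnj share was 0.209% and 0.215% in CEY1 FLAG against 0.298% and 0.301% in CEY1 MYC, 0.258% and 0.254% in CEY2 FLAG against 0.254% and 0.263% in CEY2 MYC, and 0.234% in each CEY4 FLAG library against 0.315% and 0.32% in CEY4 MYC. The cct genes made up 0.0700% to 0.0761% of FLAG libraries, against 0.208% to 0.244% of MYC libraries. The hsp share followed hsp-1 and hsp-90, which together were 0.829% and 0.820% of CEY1 FLAG, against 0.581% and 0.534% of CEY1 MYC. The cct share was the lower one in FLAG in all 3 strains, and hsp the family whose FLAG share was above MYC with CEY1 and below it with CEY2 and CEY4.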

How the data were processed

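Deposited raw counts per gene were used for 12 libraries in 6 groups of 2: FLAG and MYC immunoprecipitations from 3 strains. The authors made the counts by sequencing ScriptSeq libraries of RNA from the beads, per the labels' protocols. No source used here names the aligner, genome build, annotation or strand setting. The authors also deposited log2 values, which from their relation to the counts are counts scaled to a common total with 8 added; they entered no result, and log2 fold changes were computed from the counts. 18778 of 20182 identifiers carried a symbol, and 0 columns of other samples were left unused.

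edgeR 4.0.16 in R 4.3.3 was fitted once to all libraries with a mean per group, TMM normalisation and filterByExpr at a minimum count of 10, and quasi-likelihood tests were adjusted by Benjamini-Hochberg over 15194 genes at 0.05; the common biological coefficient of variation was 0.0476. Differences between strains were interaction contrasts. The fit was tested on simulated counts in which few genes changed, equally in both directions and in the CEY1 FLAG group alone. That simulation does not bear on the choice between scalings. Named genes were all HSP70, HSP90, HSP60 and CCT genes, J proteins with an assigned compartment, dnj-11, dnj-14 and dnj-25, the small heat shock genes tested, and the 3 largest calls in each direction of a comparison, leaving out folds of genes under 32 counts; values per library are given for 12 of them, and counts for hsp-70. The members and lists were chosen with earlier results of these data known. Alternatives were DESeq2 1.42.0, total-count and median-ratio scaling, no filter, a fit of only the libraries compared, a replicate block and leaving out each library. Floors and intervals cover counting error only.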

Additional observations from a re-analysis of the deposited data

Results flagged for a closer look

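The enrichment of FLAG over MYC differed between strains, by edgeR's interaction contrast with Benjamini-Hochberg adjustment, for the chaperone genes below. Each is among the 3 largest calls in its direction, leaving out genes under 32 counts. One gene left out this way, hsp-16.2, was also called lower for CEY2 minus CEY4 (adjusted p = 0.0309 by edgeR). The difference is in log2 units. For CEY1 minus CEY2, hsp-70 (2.88), dnj-24 (1.69) and hsp-3 (1.65) were higher, and dnj-3 (−2.27), dnj-2 (−2.17) and dnj-13 (−2.11) were lower. For CEY1 minus CEY4, hsp-70 (1.61), cct-8 (1.51) and cct-5 (1.16) were higher, and dnj-30 (−1.83), cct-3 (−1.67) and cct-2 (−1.29) were lower. For CEY2 minus CEY4, dnj-3 (2.20), dnj-15 (2.13) and dnj-2 (1.95) were higher, and hsp-70 (−1.28), dnj-24 (−1.16) and dnj-7 (−1.01) were lower.

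The enrichments behind them lay on both sides of 0 for several genes. For dnj-3 they were −0.34 with CEY1 (adjusted p = 0.129 by edgeR), 1.93 with CEY2 and −0.27 with CEY4 (adjusted p = 0.162 by edgeR). For dnj-15 they were −0.30 with CEY1 (adjusted p = 0.227 by edgeR), 1.22 with CEY2 and −0.91 with CEY4, and for dnj-24 they were 0.09 with CEY1 (adjusted p = 0.662 by edgeR), −1.60 with CEY2 and −0.45 with CEY4. For dnj-30 they were −1.02, 0.97 and 0.81, all called. Counts behind hsp-70 were 5 to 57 per library, and its FLAG libraries differed between CEY1 and CEY2 by 0.27 and its MYC libraries by −2.62.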

How the results depend on the processing

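No spike-in or input library was used here, so the scaling between FLAG and MYC libraries is the main limit, and MYC libraries were shallower than FLAG libraries. Under total-count scaling the chaperone genes called higher and lower numbered 7 and 44 with CEY1, 10 and 35 with CEY2, 6 and 43 with CEY4, and 22 and 13 for CEY2 minus CEY4. These changes follow from the shift that this scaling gives to every gene. Its medians were −1.08 for hsp genes with CEY1, −0.48 and −0.54 for dnj genes with CEY1 and CEY4, −1.50 for cct genes with CEY2, −0.87 and −1.43 for cytosol and nucleus with CEY1 and CEY2, −0.36, −0.11 and −0.10 for the ER and −1.07, −0.53 and −0.89 for the mitochondrion with CEY1, CEY2 and CEY4. Apart from the 12 dnj genes at the end of this paragraph, the named genes that turned negative under it with CEY1 were cct-4 −1.04, cct-5 −0.87, cct-8 −0.48, dnj-11 −0.45, dnj-12 −0.44, dnj-17 −0.060, dnj-19 −0.32, dnj-2 −0.87, dnj-27 −0.36, dnj-28 −0.35, dnj-29 −0.82, dnj-7 −0.78, hsp-110 −0.62, hsp-12.3 −1.09, hsp-3 −0.24, hsp-4 −0.52, hsp-60 −0.81, hsp-70 −0.027, hsp-75 −1.07. With CEY2 they were cct-2 −1.53, cct-3 −1.36, cct-4 −1.43, cct-6 −1.65, cct-7 −1.48, cct-8 −1.195, dnj-10 −0.31, dnj-11 −0.055, dnj-13 −0.31, dnj-14 −1.72, dnj-19 −0.76, dnj-21 −1.17, dnj-27 −0.11, hsp-1 −0.49, hsp-110 −0.29, hsp-4 −0.22, hsp-6 −0.43, hsp-60 −1.36, hsp-75 −0.53, hsp-90 −1.46. With CEY4 they were cct-3 −0.82, dnj-10 −0.36, dnj-11 −0.62, dnj-12 −0.51, dnj-13 −0.91, dnj-19 −1.06, dnj-2 −0.57, dnj-27 −0.54, dnj-28 −0.10, dnj-7 −0.53, hsp-1 −0.061, hsp-110 −0.31, hsp-3 −0.87, hsp-6 −0.30, hsp-60 −1.34, hsp-75 −0.89, hsp-90 −0.61. Of the 12 dnj genes given as a range in the results, 6 of the 7 above 0 with CEY1 turned negative (−1.40 to −0.14), with CEY2 5 of 11 (−0.76 to −0.058), and with CEY4 9 of 9 (−1.07 to −0.022). Those that turned included dnj-24 with CEY1, dnj-15 and dnj-30 with CEY2, and dnj-30 with CEY4, while dnj-3 with CEY2 stayed positive.

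With CEY2, median-ratio size factors and DESeq2 each gave cct-2 −0.14, cct-4 −0.040, cct-6 −0.26, cct-7 −0.086, dnj-14 −0.33, hsp-90 −0.071, and a fit of only the libraries compared gave cct-6 −0.074 and dnj-14 −0.14. Median-ratio factors called 22 higher and 13 lower for CEY2 minus CEY4, and DESeq2 called 20 higher. The fit of only the libraries compared called 25 chaperone genes between the CEY1 and CEY2 controls and 6 between the CEY1 and CEY4 controls. With no filter cct-7 with CEY1 was 0.023. The median of hsp genes with CEY4 was 0.073 without hsp-70 and the hsp-16 genes. With median-ratio factors the CEY2 values listed first all lay below their TMM values by nearly the same amount, which is a shift of scaling. The cause of the other changes was not tested.

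Leaving out each library in turn gave 31 to 31 higher and 12 to 14 lower with CEY1, 36 to 38 and 9 to 10 with CEY2, and 32 to 32 and 13 to 16 with CEY4. The differences gave 11 to 13 higher and 27 to 29 lower for CEY1 minus CEY2, 18 to 19 and 11 to 14 for CEY1 minus CEY4, and 31 to 36 and 6 to 10 for CEY2 minus CEY4. Between controls 36 to 43, 7 to 18 and 40 to 44 genes were called for CEY1 and CEY2, CEY1 and CEY4, and CEY2 and CEY4. Over these fits the values that changed sign ran from −0.035 to 0.013 for cct-7 with CEY1, −0.028 to 0.095 for dnj-14 with CEY2, −0.29 to 0.12 for dnj-7 with CEY2, −1.40 to 0.20 for hsp-12.3 with CEY2, −1.20 to 0.48 for hsp-12.3 with CEY4 and −0.38 to 0.18 for hsp-70 with CEY4.

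The replicate numbers are shared between groups, and the deviations of same-numbered libraries correlated between −0.0264 and 0.0331. Such values over all genes tested cannot tell whether same-numbered libraries shared a culture or a preparation. With the replicate block, 31 genes were called higher and 14 lower with CEY1, 38 and 10 with CEY2, and 32 and 16 with CEY4, and CEY1 minus CEY4 gave 18 and 13.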
